A study of Rattus norvegicus with 6 samples.

Results

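Genes of plasminogen activation and thrombin signaling were followed in rat chondrocytes treated with TNF-α, with or without a later treatment with NFL. The 8 genes, of 18420 in the deposited table, were Plau and Plat (the urokinase-type and tissue-type plasminogen activators), Plaur (the urokinase receptor), Serpine2 (protease nexin-1, an inhibitor of thrombin and urokinase), F2r and F2rl1 (the protease-activated receptors PAR1 and PAR2), F3 (tissue factor) and Tfpi (tissue factor pathway inhibitor). They were chosen by name with the results of this same comparison known, so their fold changes and adjusted p-values describe these libraries and support nothing further. Between the labelled groups, Plau and Serpine2 were lower and F2r was higher in the TNF-α+NFL group, each by less than 25%. Plat and F3 lay higher in every TNF-α+NFL library but missed the threshold. Plaur and Tfpi overlapped between the groups, and F2rl1 was almost undetected.

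The libraries came from primary chondrocytes of wild-type (WT) male Sprague-Dawley rats, cultured to the third passage. In the TNF-α group (n = 3) the cells were exposed for 6 h to TNF-α at 10 ng/ml. In the TNF-α+NFL group (n = 3) the same exposure came before a further 24 h with NFL, a lysate made by freezing and thawing Nanofat cells, a suspension of cells prepared from fat with a collagenase digestion. All 6 libraries therefore share the TNF-α exposure, and the untreated NC group was not analysed here. The labelled times are 6 h without and 30 h with NFL, so NFL and the time of harvest cannot be told apart. The study describes the replicates as independent and biological, while the labels do not say whether they were separate animals or cultures, and the p-values measure only the spread between these samples. Every direction follows the deposited labels. The study's own listing of changed genes places these groups in the reverse order, and which order is right was not settled here.

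Plasmin is a broad protease that cells make locally by cleaving plasminogen with urokinase or tissue-type activator, and it can degrade matrix and activate matrix metalloproteinases. Urokinase works while bound to its receptor, and serpins hold both activators in check by forming covalent complexes with them. In cartilage this system is known as one route to collagenase activation under inflammatory cytokines. Tissue factor starts the coagulation cascade that yields thrombin, and thrombin signals to cells by cleaving the outer end of PAR1, which then acts as its own ligand. Tfpi blocks the tissue factor complex, and Serpine2 blocks thrombin at the cell surface.

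The promoter windows of the 3 genes past the threshold, and of the urokinase receptor for contrast, are printed because they show how the members differ in sequence just before their start. The table of RefSeq (GRCr8) promoters used here held a window for 5 of the 8 genes, with 2 starts for Tfpi. Each line gives the 250 bases before the start, 5′ to 3′ on the strand of the gene, with matches to the AP-1 motif TGAGTCA and the SP1 motif GGGCGG on either strand in capitals. The windows lie at chr15:3511988-3512237 on the minus strand for Plau, chr9:88637203-88637452 on the minus strand for Serpine2, chr2:28620580-28620829 on the minus strand for F2r and chr1:89181113-89181362 on the plus strand for Plaur.
Plau: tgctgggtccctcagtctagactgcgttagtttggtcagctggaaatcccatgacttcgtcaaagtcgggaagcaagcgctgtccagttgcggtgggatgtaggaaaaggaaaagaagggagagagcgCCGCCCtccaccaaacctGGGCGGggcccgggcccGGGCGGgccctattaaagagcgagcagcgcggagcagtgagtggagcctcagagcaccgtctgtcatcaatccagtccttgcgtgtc
Serpine2: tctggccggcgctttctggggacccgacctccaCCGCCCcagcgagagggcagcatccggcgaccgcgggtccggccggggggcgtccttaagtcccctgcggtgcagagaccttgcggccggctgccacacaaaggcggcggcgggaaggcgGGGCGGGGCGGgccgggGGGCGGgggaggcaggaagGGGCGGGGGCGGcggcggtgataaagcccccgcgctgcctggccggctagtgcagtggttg
F2r: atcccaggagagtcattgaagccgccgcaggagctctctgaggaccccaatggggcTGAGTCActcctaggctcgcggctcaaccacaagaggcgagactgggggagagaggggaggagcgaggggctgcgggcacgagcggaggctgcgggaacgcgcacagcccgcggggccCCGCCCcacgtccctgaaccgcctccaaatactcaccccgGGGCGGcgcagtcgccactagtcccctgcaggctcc
Plaur: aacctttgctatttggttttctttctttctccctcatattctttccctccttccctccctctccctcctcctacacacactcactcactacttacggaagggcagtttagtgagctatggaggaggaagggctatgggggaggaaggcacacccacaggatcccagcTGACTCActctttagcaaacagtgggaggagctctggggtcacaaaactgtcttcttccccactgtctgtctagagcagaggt

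The Serpine2 window held 6 SP1 matches, and a pair of them, at 97 and 92 bases before the start, share a base. The Plau window held 3, at 122, 104 and 87 bases before the start, and no AP-1 match. The F2r window held 2 SP1 matches, at 76 and 36 bases, and 1 AP-1 match at 194 bases. The Plaur window held 1 AP-1 match, at 83 bases, and no SP1 match. Of 33469 promoter windows of the same length, 30.5% held an SP1 match and 4.05% an AP-1 match. The SMAD-binding motif GTCTG was found once in the Plau, the Plaur and 1 of the Tfpi windows, against 42.9% of all windows. No match to TATAAA (12.9% of windows) or to the NF-κB consensus (6.33%) was found in the windows of these 5 genes. GC content was 76.8% for Serpine2, 69.6% for F2r, 60.0% for Plau and 51.2% for Plaur, where the median of all windows was 51.2%. These matches describe letters in the window and were not tested as binding sites.

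Each RNA-seq library held between 19344893 and 19725135 estimated counts. Normalized counts scaled to library size (CPM) compare a gene between libraries, and FPKM, which is also scaled to transcript length, compares genes with each other. Of the 13250 genes that passed the filter on low counts, 54 were higher (0.408%) and 27 were lower (0.204%) in the TNF-α+NFL group when called by edgeR's quasi-likelihood test with the adjusted p under 0.05, and 0.611% were called in either direction. The libraries of the TNF-α group were less alike, with TNF-α replicates 1 and 3 at opposite ends of the first principal component, which held 28.0% of the variance. Without TNF-α replicate 1 the share of genes past the threshold was 6.94%. The chondrocyte label was checked against its markers, and the defining markers were low. Col2a1 lay between 3.69 and 4.80 FPKM, Acan between 2.34 and 3.04 and Sox9 between 2.05 and 2.55, and 5 of 11 chondrocyte markers stayed below 1 FPKM in every library. The means of Col2a1 (3.95 and 4.63 FPKM), Acan (2.61 and 2.78) and Sox9 (2.25 and 2.34) were higher, by the labels, with NFL than without, none past the threshold. The fibroblast collagen gene Col1a1 lay between 582 and 692 FPKM, and Prg4 (lubricin, of the cartilage surface) between 495 and 657. The means of Prg4 (582 and 531 FPKM), Comp (4.49 and 4.26) and Hapln1 (3.89 and 3.52) were lower with NFL than without. Of the 10 chondrocyte markers tested, 7 had a fold change above 0 and 3 below, and 0 were past the threshold. In such bulk samples, fewer cells of a type and less RNA per cell cannot be told apart.

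By FPKM, Serpine2 stood far above the other members, with 996 ± 11.7 FPKM in the TNF-α group and 837 ± 8.08 in the TNF-α+NFL group (mean ± SD, n = 3). It held place 58 of 18420 genes by mean FPKM over the 6 libraries. F3 followed with 307 ± 30.2 and 359 ± 9.30 FPKM, and Plat with 128 ± 5.52 and 148 ± 3.24. The order then changed between the groups. Plau came next in the TNF-α group with 50.2 ± 0.950 FPKM, above F2r with 37.7 ± 1.12, whereas F2r came next in the TNF-α+NFL group with 47.0 ± 3.76 FPKM, above Plau with 40.0 ± 1.65. Tfpi (14.1 ± 0.467 and 14.5 ± 1.10 FPKM) and Plaur (11.4 to 12.8 and 12.1 to 12.5 over the libraries) closed the detected set. The ranges of neighbouring genes in this order did not overlap in either group. The narrowest steps were from Tfpi to Plaur, with a ratio of 1.18 in both groups, and from F2r to Plau in the TNF-α+NFL group, with a ratio of 1.18.

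**Figure D1:**
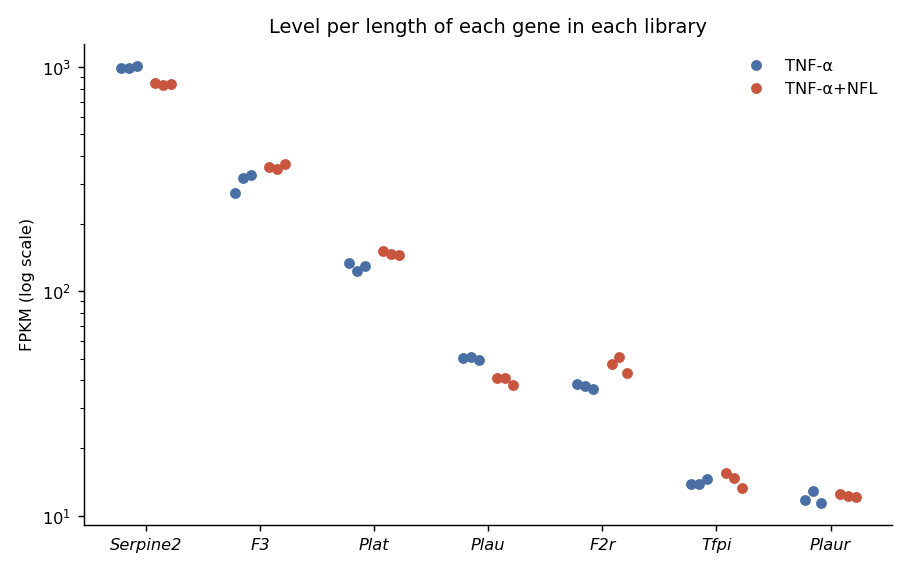
Level per length of each gene in each library: FPKM on a log axis, with 1 point per library, TNF-α on the left and TNF-α+NFL on the right of each gene. Serpine2 lies highest, and Plau and F2r change places between the groups.

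Of the 8 genes, 7 passed the filter and 3 of those were past the threshold, 1 higher and 2 lower, beside 0.611% of all genes tested. In 5 of the 7 the groups did not overlap in normalized count, beside 16.8% of all genes tested, 3 with the TNF-α+NFL libraries higher and 2 with them lower. The median log2 fold change of the 7 was 0.09, and that of all genes tested was 0.00. Nothing is read from these counts, since the genes were chosen from the same contrast. The deposited table lists the genes under the Entrez identifiers 25619 (Plau), 25692 (Plat), 50692 (Plaur), 29366 (Serpine2), 25439 (F2r), 116677 (F2rl1), 25584 (F3) and 29436 (Tfpi).

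Plau, the urokinase gene, was at 101, 100.3 and 96.9 CPM in the TNF-α libraries and at 80.6, 80.9 and 75.2 CPM in the TNF-α+NFL libraries. The groups were well apart, with a gap wider than the range within either. Plau fell by 0.33 on the log2 scale (SE 0.045, adjusted p = 0.00556 in edgeR's quasi-likelihood test). The call was lost without TNF-α replicate 2 (log2 fold change −0.32, adjusted p = 0.0528) and without TNF-α+NFL replicate 1 (−0.35, adjusted p = 0.0673). It was also lost in limma on log2(FPKM + 1), with adjusted p = 0.0540.

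Plat, which encodes the other activator and is better known for its role on fibrin, pointed the opposite way. It was at 341, 308.6 and 326 CPM in the TNF-α libraries and at 383, 370.4 and 368 CPM in the TNF-α+NFL libraries. All 3 TNF-α+NFL libraries lay above all 3 TNF-α libraries, but the log2 fold change of 0.20 (SE 0.043) had an adjusted p of 0.0599. Without TNF-α replicate 1 it was 0.24, with an adjusted p of 0.000153. The DESeq2 Wald test (adjusted p = 0.00338) and 3 other alternatives also placed it past the threshold. Its estimated count was fractional in 5 of 6 libraries, so its value is an estimate and not a plain count of reads.

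Plaur, the receptor that concentrates urokinase on the cell, was at 14.2, 15.2 and 13.6 CPM in the TNF-α libraries and at 14.9, 14.6 and 14.4 CPM in the TNF-α+NFL libraries. The TNF-α+NFL libraries lay inside the range of the TNF-α libraries. Its log2 fold change was 0.03 (SE 0.074, adjusted p = 0.930 in edgeR's quasi-likelihood test), and its sign turned without TNF-α replicate 3, to −0.01. It was 0.08 with TNF-α replicate 2 left out and 0.07 with the length trend removed.

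**Figure D2:**
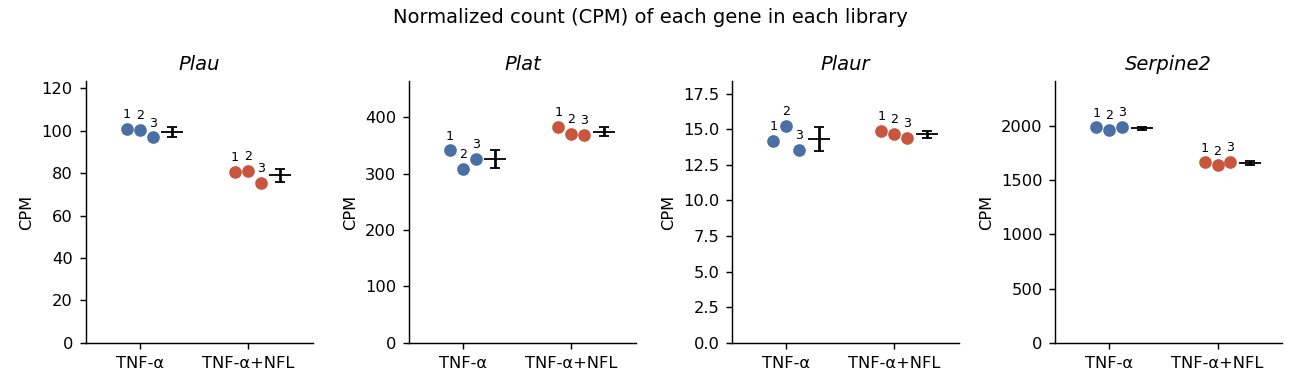
CPM of Plau, Plat, Plaur and Serpine2 in each library, with 1 panel per gene, 1 point per library, and a bar at the mean with its SD. Plau and Serpine2 lie lower, and Plat higher, in all 3 TNF-α+NFL libraries, while Plaur overlaps.

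Serpine2, the inhibitor, was the member with the highest level per length. It was at 1985, 1959 and 1987 CPM in the TNF-α libraries and at 1663, 1635 and 1670 CPM in the TNF-α+NFL libraries. The distance between the groups was several times the range within each. Serpine2 fell by 0.26 on the log2 scale (SE 0.034, adjusted p = 0.00556 in edgeR's quasi-likelihood test), from 0.197% to 0.166% of all counts in a library. The call was lost without TNF-α+NFL replicate 1 (adjusted p = 0.0740) and without replicate 2 (0.0655), while the log2 fold change stayed at −0.26 and −0.25, and in limma on log2(FPKM + 1) (adjusted p = 0.0947).

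F2r, the PAR1 gene, was at 135, 130.2 and 126 CPM in the TNF-α libraries and at 162, 175 and 149 CPM in the TNF-α+NFL libraries. The groups did not overlap, but the TNF-α+NFL libraries were spread more widely than the TNF-α libraries. F2r rose by 0.31 on the log2 scale (SE 0.055, adjusted p = 0.0267 in edgeR's quasi-likelihood test), an increase of 24.2%. Its estimated count was fractional in all 6 libraries. This was the least steady of the 3 calls. It was lost without TNF-α replicate 2 (log2 fold change 0.32, adjusted p = 0.175), TNF-α replicate 3 (0.29, 0.0943), TNF-α+NFL replicate 1 (0.31, 0.182) or TNF-α+NFL replicate 2 (0.26, 0.175), and in limma on log2(FPKM + 1) (adjusted p = 0.164).

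F2rl1, the receptor for trypsin-like proteases, had estimated counts of 4, 0 and 6.88 in the TNF-α libraries and of 5, 4.05 and 1.62 in the TNF-α+NFL libraries. It did not pass the filter and was not tested, and a count of 0 allows up to 3 counts. No difference between the groups was detectable at this depth.

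F3, which encodes tissue factor, was at 487, 559.8 and 580.3 CPM in the TNF-α libraries and at 630.4, 618 and 650.2 CPM in the TNF-α+NFL libraries. The groups did not overlap, and TNF-α replicate 1 lay well below the other 5 libraries. The log2 fold change was 0.22 (SE 0.059, adjusted p = 0.164 in edgeR's quasi-likelihood test). Without TNF-α replicate 1 it was smaller, at 0.15, but past the threshold (adjusted p = 0.00420), as it also was in the DESeq2 Wald test (0.00897) and with the length trend removed (0.0324).

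Tfpi, the brake on tissue factor, was at 28.7, 28.3 and 28.5 CPM in the TNF-α libraries and at 32.6, 30.5 and 28.0 CPM in the TNF-α+NFL libraries. The lowest TNF-α+NFL library lay below all 3 TNF-α libraries, and the others lay above them. The log2 fold change was 0.09 (SE 0.063, adjusted p = 0.658 in edgeR's quasi-likelihood test). It was 0.04 without TNF-α+NFL replicate 1 and in limma on log2(FPKM + 1), and 0.15 without TNF-α+NFL replicate 3.

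**Figure D3:**
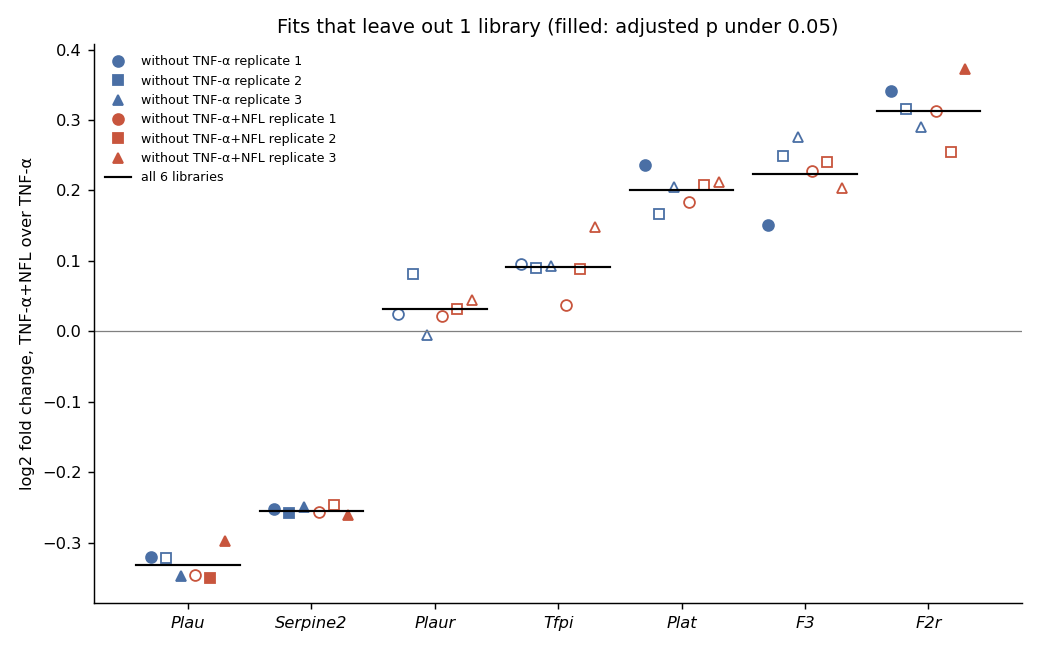
Log2 fold change of TNF-α+NFL over TNF-α for the 7 tested genes when each library is left out in turn; filled points have an adjusted p under 0.05 and black lines mark the value from all 6 libraries. Plau and Serpine2 are past the threshold in 4 of 6 fits, F2r in 2, Plat and F3 in 1, and Plaur and Tfpi in 0.

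Markers of other cells were read beside these genes. The summed FPKM of the macrophage markers was 54.7 to 56.6 in the TNF-α group and 48.8 to 51.0 in the TNF-α+NFL group, with 4 of 6 listed markers below 1 FPKM in every library and C1qb at 0. That of the endothelial markers was 5.95 to 7.30 and 5.04 to 5.75, with 5 of 6 below 1 FPKM and Kdr at 0. That of the fibroblast markers was 2325 to 2444 and 2470.3 to 2514, and it was carried by Thy1 (mean 1255 and 1341 FPKM) and Col1a1 (624 and 655), while 3 of the 7 had a fold change above 0 and 4 below, with a median of −0.02 on the log2 scale. These 3 sums did not overlap between the groups, and their part in the results for the 8 genes was not tested. Adipocyte markers, relevant because NFL comes from fat, summed to 18.7 to 19.3 and 18.7 to 21.3 FPKM with Adipoq at no more than 0.14, and all 7 listed blood and platelet markers stayed below 1 FPKM. All 7 fibroblast markers passed the filter on low counts and were tested. Fewer of the others passed it: 2 of 6 macrophage, 1 of 6 endothelial, 3 of 7 adipocyte and 0 of 7 blood and platelet markers. Of those tested, 0 were past the threshold by edgeR's quasi-likelihood test, beside 0.611% of all genes tested.

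The ratio between a pair of these genes within a library does not depend on library size. It is given as the ratio of FPKM values, as a description. The Plau to Serpine2 ratio, of a protease to its inhibitor, was 0.0504 ± 0.00154 in the TNF-α group and 0.0478 ± 0.00214 in the TNF-α+NFL group (n = 3 each). Both of its genes were lower in the TNF-α+NFL group, and the ratio overlapped between the groups. The Plau to Plaur ratio was 4.20 ± 0.192 and 3.26 ± 0.0932, without overlap. The F3 to Tfpi ratio was 21.8 ± 1.73 and 24.9 ± 2.47, and its groups were apart by FPKM but overlapped by CPM. The F2r to F2rl1 ratio was not compared between the groups, since F2rl1 was at 0 in TNF-α replicate 2 and at a few counts in the other libraries.

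The ratio of Plau to Plat was chosen after the data had been seen. It was 0.392 ± 0.0214 in the TNF-α group and 0.270 ± 0.00875 in the TNF-α+NFL group, so Plat RNA exceeded Plau RNA per length in both. The groups did not overlap, and the log2 change was −0.53, wider than that of the Plau to Plaur ratio (−0.37).

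**Figure D4:**
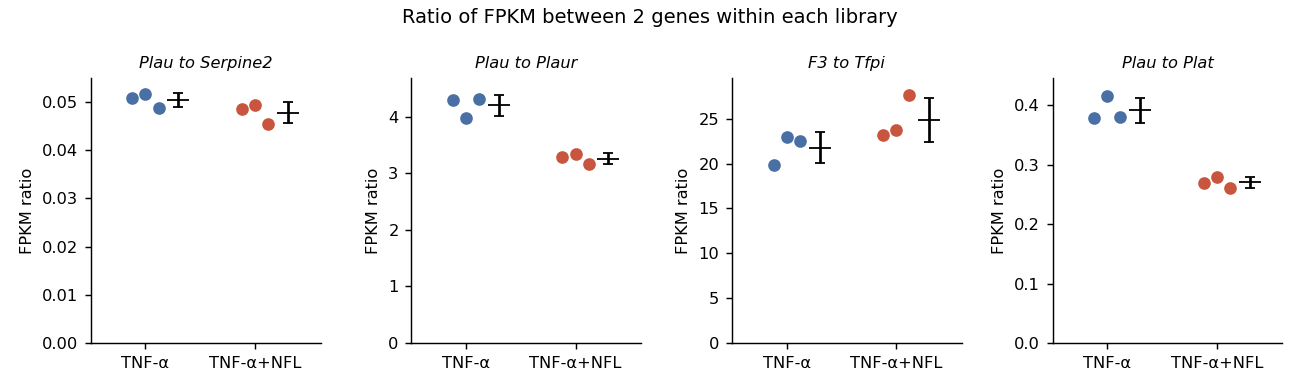
Ratio of FPKM between a pair of genes within each library, with 1 point per library and a bar at the mean with its SD in either group. Plau to Plaur and Plau to Plat lie lower in every TNF-α+NFL library, F3 to Tfpi lies higher in every one, and Plau to Serpine2 overlaps.

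Around the 8 genes, 58 other symbols of the pathway are reported by role, of which 53 were in the table and 37 were tested. By edgeR's quasi-likelihood test 0 of the 37 were past the threshold, beside 0.611% of all genes tested, and 4 had an unadjusted p under 0.05. The DESeq2 Wald test placed 1 of them past the threshold as higher. Without TNF-α replicate 1, 1 was past it as higher and 3 as lower, beside 6.94% of all genes tested. Their fold changes were 17 above and 20 below 0, with a median of −0.05, and 13 of the 37 turned sign in some fit that left out 1 library. The groups did not overlap for 3 of the 37, beside 16.8% of all genes tested. They were Anxa2, Serpina3n and, named after its values were seen, the thrombomodulin gene Thbd (log2 fold change −0.35, adjusted p = 0.182).

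Among plasminogen and its receptors, cofactors and clearance, 7 of 14 symbols were tested, 1 with a fold change above 0 and 6 below. Of those 6, 3 turned sign when 1 library was left out (Lrp1, Mrc2 and Igf2r, named after their values were seen). Anxa2 and S100a10 encode the 2 subunits of a cell-surface docking complex for plasminogen and its activators. Their log2 fold changes were −0.14 (SE 0.044, adjusted p = 0.213) and −0.17 (SE 0.071, adjusted p = 0.417) by edgeR's quasi-likelihood test, and of the fits run, both passed only in that without TNF-α replicate 1 (−0.19 and −0.25, adjusted p = 0.00045 and 0.000310). The S100a10 value was −0.07 with the length trend removed. Plasminogen itself, Plg, had counts from 1 to 4 in the 6 libraries and was not tested.

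Of the serpins and other inhibitors, 13 of the 18 symbols reported were tested, 6 above and 7 below 0. Serpina3n, a secreted inhibitor induced by inflammation, had a log2 fold change of 0.20 (SE 0.062, adjusted p = 0.248 in edgeR's quasi-likelihood test), and it was past the threshold in the DESeq2 Wald test (adjusted p = 0.0310) and at 0.13 with TNF-α+NFL replicate 3 left out. Serpinh1, a collagen chaperone that inhibits no protease, had a log2 fold change of 0.05 (adjusted p = 0.719 in edgeR's quasi-likelihood test), and leaving out a library gave from 0.03 (TNF-α replicate 2) to 0.08 (TNF-α replicate 3). Of thrombin, coagulation and its brakes, 10 of 18 were tested, 6 above and 4 below 0. Gas6, a vitamin K-dependent ligand of TAM receptors, was at 0.02 (adjusted p = 0.909) and Vkorc1, which recycles vitamin K, at −0.05 (adjusted p = 0.792), and both signs turned under other settings. Prothrombin, F2, had counts of 0 in all 3 TNF-α libraries and of 1 to 3 in the TNF-α+NFL libraries, all within 3 counts. Of the protease-activated receptors and their coupling, 7 of 8 were tested, 4 above and 3 below 0, with the G protein genes Gnaq at −0.12 (adjusted p = 0.652) and Gna12 at 0.06 (adjusted p = 0.694). Gnaq was at −0.04 without TNF-α replicate 1, at −0.05 without TNF-α+NFL replicate 1 and at −0.18 without TNF-α+NFL replicate 2, and Gna12 at 0.09 without TNF-α+NFL replicate 1 and at 0.04 without TNF-α+NFL replicate 3.

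**Figure D5:**
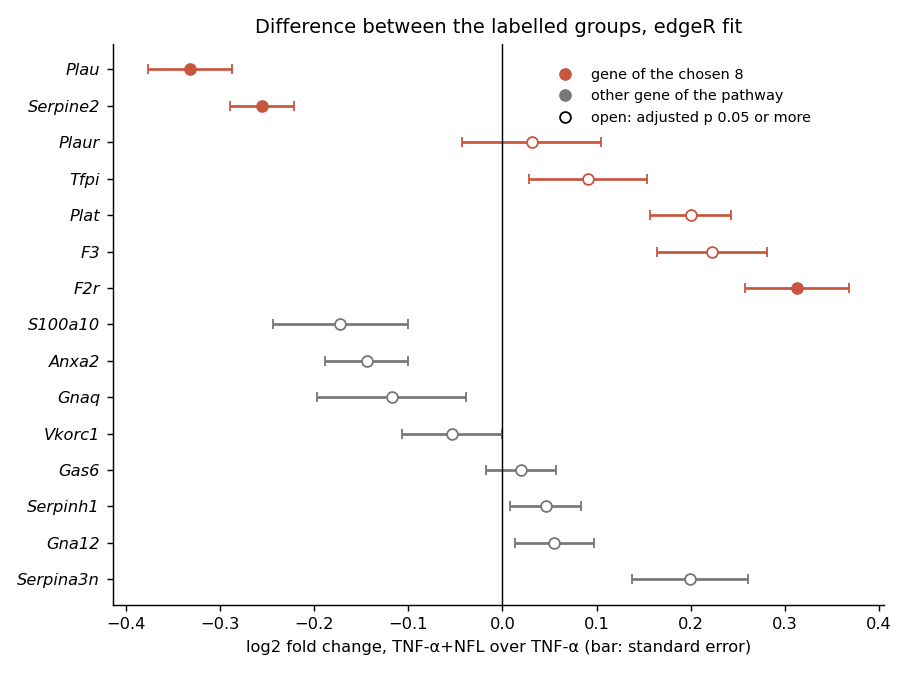
Log2 fold change of TNF-α+NFL over TNF-α with its standard error for the 7 tested genes of the chosen 8 and for other named genes of the pathway; open points have an adjusted p of 0.05 or more. Plau and Serpine2 are the filled points below 0, and F2r is the filled point above 0.

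The genes most like Plau, Serpine2 and F2r over the 6 libraries were found among 9088 tested genes with a mean of at least 10 CPM. Likeness was the Pearson r of log2(CPM + 0.5), which does not measure the size of a change. The log2 fold change is therefore given after each r. For Plau they were Limk1 (r = 0.996, −0.13), Trim28 (0.991, −0.04) and Ifitm10 (0.988, −0.47). For Serpine2 they were Eif3f (0.992, −0.13), Steap3 (0.987, −0.13) and Dcakd (0.986, −0.16). For F2r they were Il1r1 (0.996, 0.14), the interleukin-1 receptor gene, Fmr1 (0.991, 0.27) and Slc6a6 (0.988, 0.45), a taurine transporter gene. These values are over 6 libraries that share the same group difference, are the highest of 9088 and are given as a description.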

How the data were processed

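Single-end RNA-seq of mRNA purified with oligo(dT) beads was sequenced at BGI, on a BGISEQ-500 per the labels and on an MGISEQ-2000 per the methods of the study. The submitters' processing notes name HISAT2 2.0.4, Bowtie2 2.2.5, RSEM 1.2.12 and Rnor_6.0, without their roles. For each gene the authors deposited an estimated count, not normalized, an FPKM value, scaled to mapped reads and transcript length, and a TPM value, used in no comparison. Between 27.3% and 27.95% of genes had a fractional estimated count, so counts were rounded.

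Low counts were filtered with filterByExpr and libraries scaled by TMM in edgeR 4.0.16 (R 4.3.3), and the groups were compared by the two-sided, robust quasi-likelihood test. P-values were adjusted by Benjamini-Hochberg over 13250 genes, and standard errors were derived from each fold change with its F statistic. CPM values here are TMM-normalized. An exact permutation test of 3 against 3 samples cannot give a two-sided p below 0.1, so none is printed. The fit was tested on simulated counts with 200 genes changed, and 34.5% of log2 changes of 0.3 and 88.0% of changes of 1 were recovered. Of the calls, 6.76% at 0.3 and 3.30% at 1 were on unchanged genes. The simulation gave both groups the same spread, set by the trend over all genes. The real libraries of the TNF-α group were less alike, so these shares may not hold for them. The biological coefficient of variation was 6.39%.

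The 8 genes and the lists were chosen with earlier results of these data known. Named genes are the 8, pathway genes past an adjusted p of 0.05, in each role the 2 with the highest mean FPKM, and Plg and F2. A result that was part of this design is not reported here. As alternatives, 2 other count filters were used, along with DESeq2 1.42.0 (size factors and Wald test), limma 3.58.1 (voom, and FPKM with a pseudocount of 1), removal of each library's length trend, the replicate number as a block, and leaving out each sample. Promoter windows came from the RefSeq table of GRCr8. Protein features were not analysed here.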

Additional observations from a re-analysis of the deposited data

How the results depend on the processing

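Among the 8 genes, 1 was past the threshold in the higher direction, and this count was 2 with no filter on low counts, 2 with at least 10 counts in every sample, 3 in the DESeq2 Wald test, 3 with the length trend removed and 0 in limma on log2(FPKM + 1). In the lower direction it was 2, and 0 in limma on log2(FPKM + 1). Leaving out each replicate gave 0 to 3 and 0 to 2. Of the other pathway genes reported, 0 were higher, with 1 in the DESeq2 Wald test, and 0 were lower, with 1 when the length trend was removed. Leaving out each replicate gave 0 to 1 and 0 to 3. Leaving out 1 replicate turned the sign of 13 of these 37 genes. Among the named genes, signs reversed on the log2 scale for Plaur without TNF-α replicate 3 (−0.0055, where leaving out any replicate gave up to 0.082), Gas6 without TNF-α+NFL replicate 3 (−0.0072, up to 0.040) and Vkorc1 with the length trend removed (0.023) and without TNF-α replicate 3 (0.0026, down to −0.084). The causes were not tested.

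Samples with the same replicate number showed no shared deviation, with correlations of the deviations of −0.01, −0.02 and 0.08. These values cannot tell whether the samples were paired by design. With the replicate block the 8 genes still had 1 higher and 2 lower, and 25 genes were higher and 9 lower over all genes. Over all genes tested, 54 were higher and 27 lower, against 95 and 53 in the DESeq2 Wald test, 84 and 48 with no filter, 151 and 85 with the length trend removed, 3 and 3 in limma on log2(FPKM + 1), 460 and 470 without TNF-α replicate 1, and 5 and 0 without TNF-α+NFL replicate 1. In the whole promoter window of 300 bases the Plau promoter held 3 SMAD-binding matches where 250 bases held 1. Depth leaves F2rl1, Plg and F2 near the limit of detection.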
